A study of Mus musculus with 14 samples.

Results

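The loci of 9 mouse genes of cytokine signalling were examined for transcription factor (TF) binding: 5 STAT genes (Stat3, Stat4, Stat5a, Stat5b and Stat6) and 4 genes of the SOCS family (Socs1, Socs2, Socs3 and Cish). They were chosen by family name out of 21774 protein-coding genes, and a locus was the RefSeq span of the gene in GRCm38 extended by 20 kb on each side. ChIP-seq peaks overlapping such a window were counted, and a peak in the windows of neighbouring genes was counted once. The windows held 141 of the 158488 peaks of the series, of which 12 lay in more than 1 window.

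The peaks came from 14 lists, each made with 1 antibody in 1 population sorted during the differentiation in vitro of a 129-strain mouse embryonic stem (ES) cell line that carries a GFP reporter at Brachyury (Bry). In mesoderm (MES, Bry+ and Flk1-) C/EBPβ and ELK4 were mapped, in hemangioblasts (HB, Bry+ and Flk1+) C/EBPβ and GATA2, and in hemogenic endothelium (HE, Tie2+, cKit+ and CD41-) C/EBPβ. In hematopoietic progenitors (HP, CD41+) the antibodies were against PU.1 (the product of Spi1), RUNX1, GFI1B, GATA1, GATA2 and C/EBPβ, and in macrophages (MAC, CD11b+) against C/EBPβ, RUNX1 and PU.1. All populations shared 1 ES cell line with the same reporter, no other allele being named in the labels, and the few HE cells were precipitated with mouse mRNA and histone H2B as carriers. Each combination of stage and factor had 1 list and no replicate, so the replicate error is unknown and no test was made. The lists held between 72 peaks (MAC RUNX1) and 82866 peaks (MAC PU.1), every peak being 400 bp wide. The sequencing depth behind each list was not used here and the peak-calling threshold was set by eye for each list, so the absence of a peak does not show absence of binding. Peak lists hold no expression values, so the labelled cell types could not be checked against marker genes.

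STAT proteins are latent cytoplasmic TFs that are phosphorylated by JAK kinases at activated cytokine receptors, enter the nucleus as dimers and bind a palindrome in DNA. SOCS proteins and CISH are induced by STATs and act as feedback inhibitors, at the receptor or at the kinase. PU.1 and C/EBPβ are TFs of the myeloid lineage, and macrophages respond to interleukin-6, interleukin-10 and interferons through this pathway. None of the lists measured a STAT protein.

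To show the DNA under the binding described here, sequences are given from the loci in which peaks of several lists coincided or in which a promoter held a STAT consensus. The first 4 come from regions bound in 3 or more lists (300 bases at the centre, or 30 bases at Cish), and the last 2 are 30 bases of the Socs3 promoter, upstream of its curated start (position 117969366), and 30 bases across the Cish start. All are written 5′ to 3′ from GRCm38.p6 in lower case. Capitals mark consensus words found on either strand: GAGGAAGT for PU.1, TTCNNNGAA for STAT, and TTGCACAA, TTGCATAA, TTGCGCAA or TTGCGTAA for C/EBP. Both Socs3 regions were chosen among 4 bound in 3 lists, after their words had been seen, and the Cish start was added for the same reason. The 30 bases of the Cish region at -15.9 kb overlap an exon of a predicted Mapkapk3 transcript, and those of the Socs3 promoter an exon of a predicted Socs3 transcript.
Stat6 promoter region (chr10:127642481-127642780, plus strand): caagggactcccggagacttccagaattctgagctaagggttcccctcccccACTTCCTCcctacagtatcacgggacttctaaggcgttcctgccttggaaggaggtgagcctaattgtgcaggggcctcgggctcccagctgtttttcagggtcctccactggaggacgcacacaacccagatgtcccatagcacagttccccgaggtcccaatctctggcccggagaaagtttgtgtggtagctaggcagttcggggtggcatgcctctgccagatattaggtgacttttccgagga
Socs3 region at 9.25 kb (chr11:117959965-117960264, plus strand): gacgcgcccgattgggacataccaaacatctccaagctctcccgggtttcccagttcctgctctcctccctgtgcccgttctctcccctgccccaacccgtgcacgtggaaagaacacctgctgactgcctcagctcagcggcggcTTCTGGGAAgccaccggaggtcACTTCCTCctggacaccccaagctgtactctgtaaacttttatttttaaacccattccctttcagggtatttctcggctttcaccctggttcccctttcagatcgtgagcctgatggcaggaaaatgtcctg
Socs3 region at 22.7 kb (chr11:117946526-117946825, plus strand): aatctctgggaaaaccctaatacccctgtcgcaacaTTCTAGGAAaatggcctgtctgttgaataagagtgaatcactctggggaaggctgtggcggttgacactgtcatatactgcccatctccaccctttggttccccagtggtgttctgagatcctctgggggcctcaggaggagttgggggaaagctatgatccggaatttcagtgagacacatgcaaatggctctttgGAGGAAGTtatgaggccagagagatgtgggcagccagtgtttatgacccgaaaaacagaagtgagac
Cish region at -15.9 kb (chr9:107280638-107280667, plus strand): atccttacctcTTGCGCAAtggccggcaca
Socs3 promoter (chr11:117969502-117969531, minus strand): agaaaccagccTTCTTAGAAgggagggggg
Cish start (chr9:107296653-107296682, plus strand): ccagttTTCCTGGAAagTTCTTGGAAatct

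Peaks at the 9 loci were spread over the lists much as in the whole series. The HP and MAC lists held 140 of the 141 peaks (99.3%), and 98.3% of all peaks of the series. Of the 126 combinations of locus and list, 32 had a peak. MAC PU.1 contributed 78 peaks and MAC C/EBPβ 44 peaks, together 86.5% of all peaks at the loci and 87.3% in the series. HP PU.1 followed with 13 peaks and HP C/EBPβ with 4 peaks, while HP RUNX1 and MES C/EBPβ had 1 peak each. The other 8 lists had none.

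These counts were read beside the share of all coding genes with a peak in a window of the same definition. All 9 genes had a MAC PU.1 peak, where 79.1% of coding genes did, and all 9 had a MAC C/EBPβ peak, where 73.8% did. An HP PU.1 peak was present at 7 of 9, against 38.2% of coding genes, and was lacking at Stat4 and Socs2. HP C/EBPβ marked 5 of 9 windows against 14.8%, though 1 of its 4 peaks served both Stat5a and Stat5b. When peaks were given to the gene with the nearest coding start, 3 of 9 members had an HP C/EBPβ peak, against 10.4% of coding genes, and 6 of 9 an HP PU.1 peak, against 29.5%. HP RUNX1 marked 1 of 9 against 7.79%, and MES C/EBPβ 1 of 9 against 6.47%. Among the lists without a peak at these loci, HP GFI1B marked 11.8% of coding genes, more than HP RUNX1 or MES C/EBPβ. The shares were 4.66% for MES ELK4, 4.24% for HB C/EBPβ, 3.36% for HP GATA2 and 1.75% for HP GATA1. The corresponding shares were 0.684% for HE C/EBPβ, 0.478% for MAC RUNX1 and 0.363% for HB GATA2. With 9 genes, a count of 0 beside any of these shares does not distinguish the STAT and SOCS loci from other genes.

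**Figure D1:**
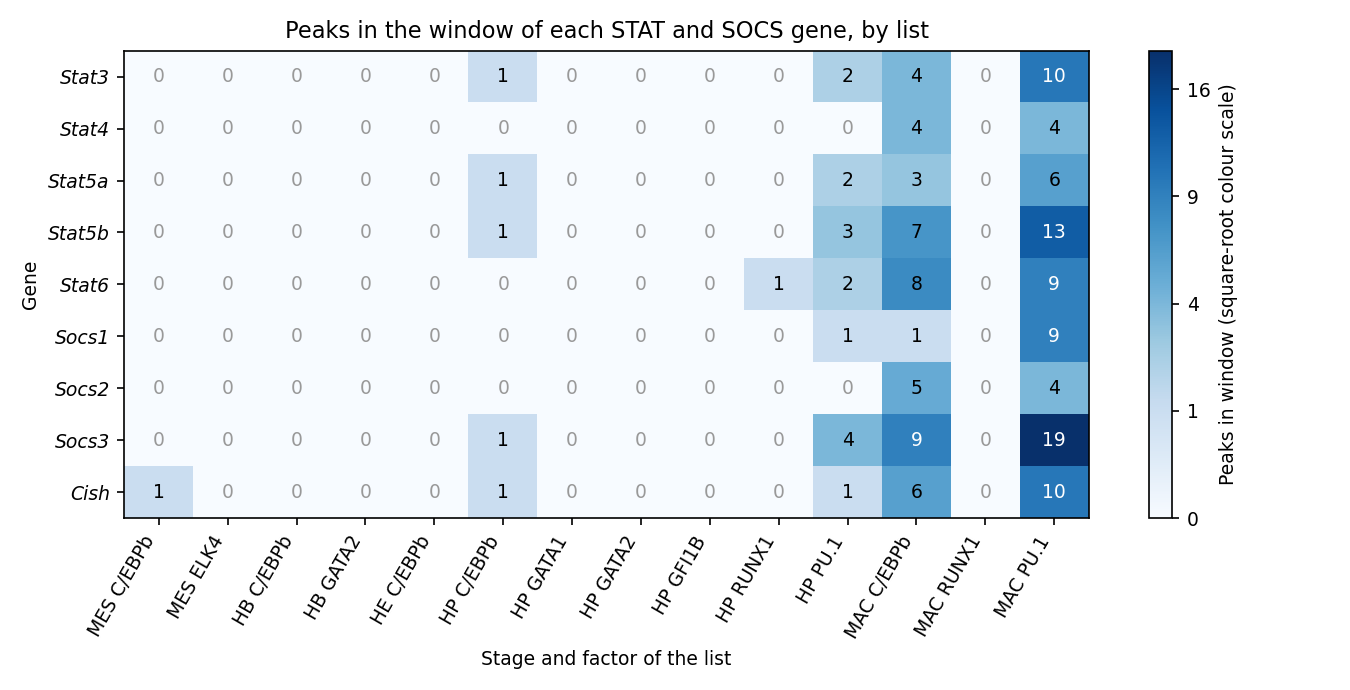
Number of peaks in the window of each gene (rows) in each of the 14 lists (columns, stage and factor, C/EBPb standing for C/EBPβ), with colour on a square-root scale. Peaks in the windows of neighbouring genes appear in each of them, and Socs3 has the highest count, 19 in MAC PU.1.

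**Figure D2:**
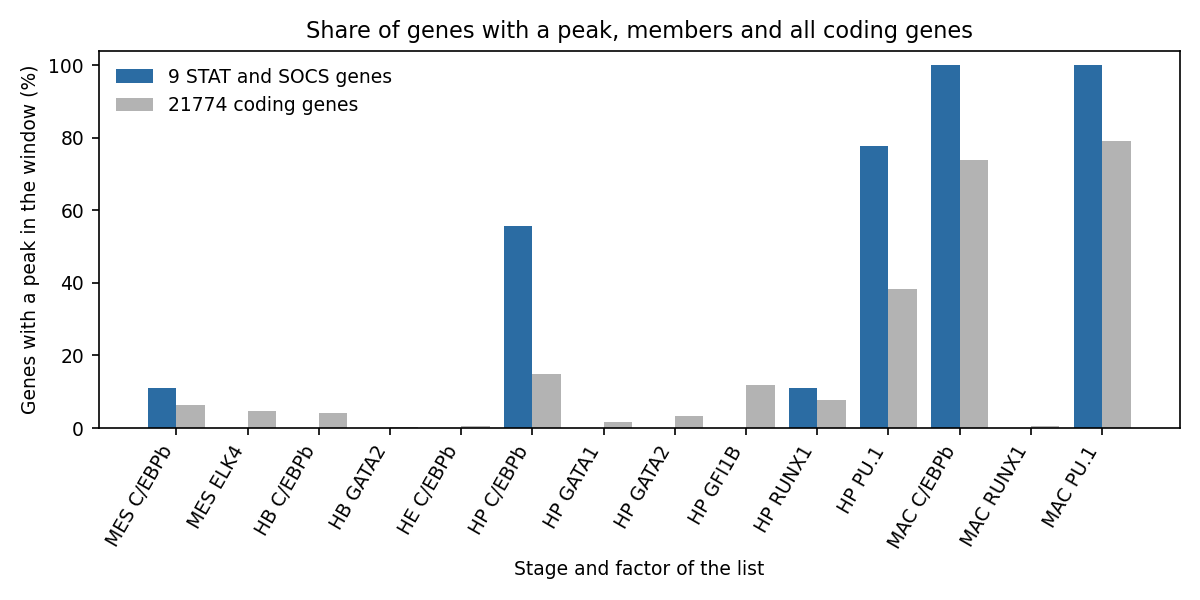
Percent of the 9 STAT and SOCS genes (blue) and of 21774 coding genes (grey) with at least 1 peak in the gene span and 20 kb on each side, for each list. All 9 genes had a peak in MAC PU.1 and MAC C/EBPβ, and 8 lists had no peak at any of them.

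The windows were somewhat longer than those of other genes (median 65.8 kb against 57.2 kb), so counts were also taken per 10 kb. The median gene of the 9 had 1.1 MAC PU.1 peaks per 10 kb, while the median coding gene had 0.524. For MAC C/EBPβ the medians were 0.592 and 0.317 peaks per 10 kb. In windows of equal length, 20 kb on each side of the annotated start, the median was 6 MAC PU.1 peaks for the 9 genes and 2 for coding genes. The 9 genes ranged widely in these windows, from 0 at Stat4 to 17 at Socs3. The window of Stat4 was centred on its upstream annotated start, whereas distances below are taken from the nearest curated start, which for the Stat4 peaks was the downstream one.

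Stat3 encodes the STAT activated by interleukin-6 and interleukin-10 and lies on the minus strand of chr11:100886806-100939594. Its window held 10 MAC PU.1 peaks, 4 MAC C/EBPβ peaks, 2 HP PU.1 peaks and 1 HP C/EBPβ peak. A MAC PU.1 peak lay upstream of the start site, at -0.27 kb in the noncoding gene Gm46295, without a PU.1 word. In the first part of the gene, at 1.21 kb, HP C/EBPβ coincided with both macrophage factors (chr11:100938086-100938584, intron of Stat3). There the HP and MAC C/EBPβ peaks had their centres at 1162 bp and 1156 bp, and none of these peaks held a C/EBP or PU.1 word. The HP PU.1 peaks were both intronic, at 12 kb and at 47.8 kb, and the latter also lay in the Stat5a window. The overlapping MAC PU.1 peaks were centred within 50 bp of them.

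Stat4, the STAT of interleukin-12 signalling, spans chr1:51987106-52107189 on the plus strand and had the lowest density of macrophage peaks among the STAT genes. Its 160 kb window held 4 MAC PU.1 and 4 MAC C/EBPβ peaks and no peak of another list. None was within 2 kb of a Stat4 start: the nearest was a MAC PU.1 peak at 3.22 kb in an intron. Of the 8 peaks, 4 were closer to the start site of the neighbouring coding gene than to that of Stat4. The density of 0.25 MAC PU.1 peaks per 10 kb was reached by 66.2% of coding genes.

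Stat5a and Stat5b encode near-identical STATs that respond to erythropoietin, interleukin-3 and GM-CSF among others. They lie head to head on chromosome 11, Stat5b at 100780731-100859004 on the minus strand and Stat5a at 100859351-100885169 on the plus strand, so that their windows overlap. The Stat5a window held 6 MAC PU.1, 3 MAC C/EBPβ, 2 HP PU.1 and 1 HP C/EBPβ peaks, and the Stat5b window 13, 7, 3 and 1. With every peak counted once, at the member whose span contained it or lay nearest, Stat5b had 12 MAC PU.1 and 6 MAC C/EBPβ peaks while Stat5a had 1 of each. A MAC C/EBPβ peak lay at -0.121 kb from a Stat5a start. An HP PU.1 and a MAC PU.1 peak at about 1.1 kb in the first intron of Stat5a had their centres at 1114 bp and 1098 bp. At Stat5b, both macrophage factors bound at an internal annotated start, with centres at -91 bp (C/EBPβ) and -87 bp (PU.1) from it. A further MAC PU.1 peak lay at -0.545 kb from the most upstream curated start. The single HP C/EBPβ peak of this pair was in a Stat5b intron at 2.37 kb and held a C/EBP word, as did the MAC C/EBPβ peak overlapping it (chr11:100848015-100848465). The HP PU.1 peaks of Stat5b were at -4.21 kb and 21.5 kb, the second with a PU.1 word.

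Stat6, which mediates interleukin-4 and interleukin-13 responses, spans chr10:127642955-127660987 on the plus strand. It had 9 MAC PU.1 and 8 MAC C/EBPβ peaks, 2 HP PU.1 peaks and the only HP RUNX1 peak of the 9 loci. The region at its promoter (chr10:127642135-127643125) was bound in 3 lists. The HP and MAC PU.1 peaks there had the same coordinates, centred at -452 bp on the PU.1 word shown above, and MAC C/EBPβ peaks flanked them at -652 bp and -61 bp. A second region bound by HP PU.1 and both macrophage factors lay at -11 kb (chr10:127631596-127632333, intergenic) and had no PU.1 or C/EBP word. The HP RUNX1 peak was at 33.9 kb (chr10:127676589-127677088 with the overlapping MAC peaks), 177 bp from the start site of Nemp1. It held no TGTGGTT, the RUNX word searched. The MAC C/EBPβ density of Stat6, 1.38 per 10 kb, was reached by 2.07% of coding genes, but in windows of equal length its 4 peaks were reached by 16.4%. Several of these peaks were nearer to the starts of Nab2 and Nemp1 than to that of Stat6.

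**Figure D3:**
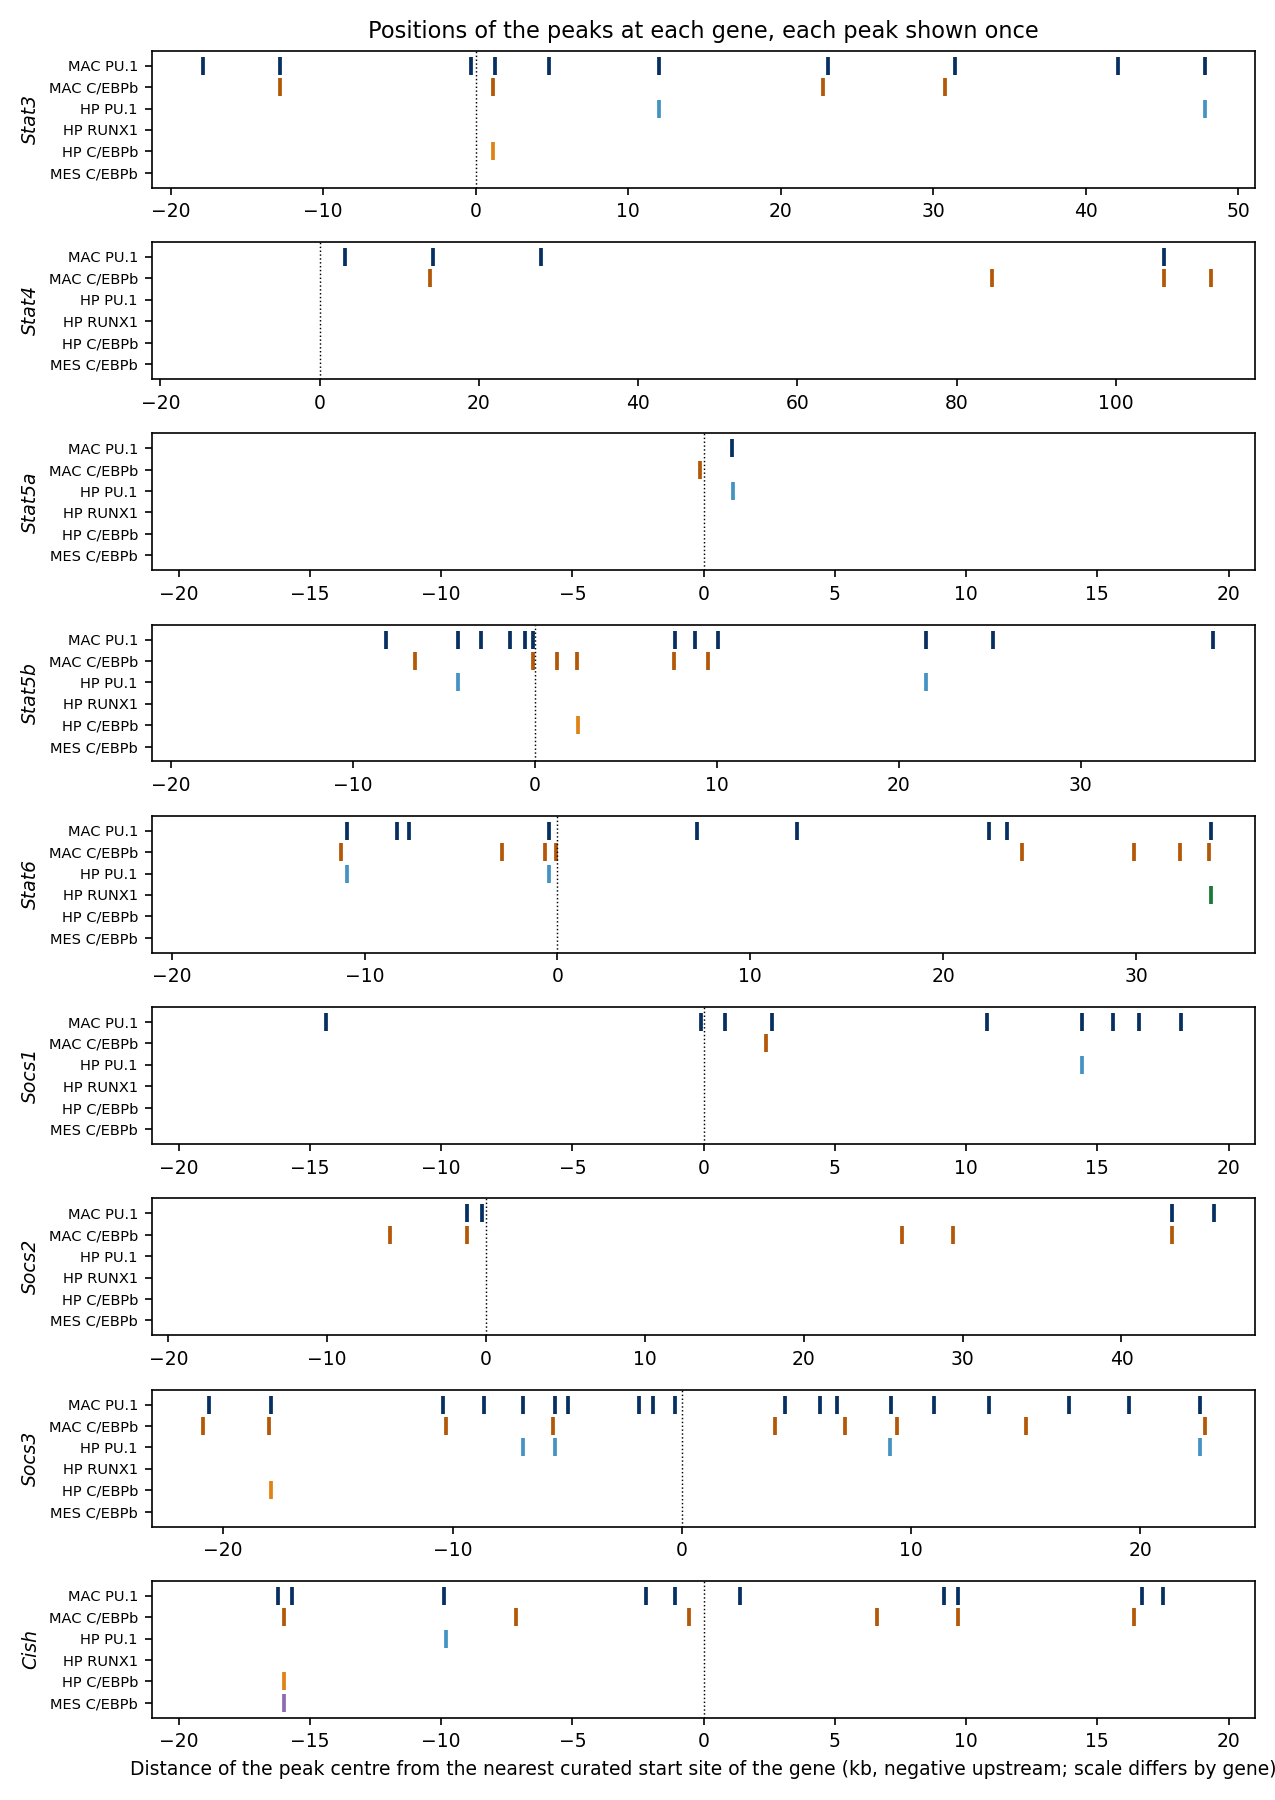
Centre of each of the 141 peaks relative to the nearest curated start site of its gene (kb, negative upstream), with 1 panel per gene and 1 row per list. Peaks in several windows are shown once, at the member whose span is nearest, and each of the 13 HP PU.1 ticks has a MAC PU.1 tick at nearly the same position.

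Socs1 is a short gene (chr16:10783808-10785536, minus strand) whose product inhibits JAK kinases directly. Its window held 9 MAC PU.1 peaks and 1 MAC C/EBPβ peak. This imbalance rests on the window, since 16 MAC PU.1 and 10 MAC C/EBPβ peaks had Socs1 as the gene with the nearest coding start. MAC PU.1 peaks lay at -0.116 kb and, in the coding exon, at 0.832 kb. Both macrophage factors bound together at 2.48 kb downstream of the start. The single HP PU.1 peak, at 14.4 kb in intergenic sequence (chr16:10770922-10771321), had the same coordinates as a MAC PU.1 peak and held a PU.1 word. Its MAC PU.1 density of 2.16 per 10 kb was reached by 2.42% of coding genes (4.22% for its count in windows of equal length), and its MAC C/EBPβ density of 0.24 by 55.5%.

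Socs2, known as an inhibitor of growth hormone signalling, spans chr10:95383903-95417321 on the minus strand. It resembled Stat4 in having no peak outside MAC PU.1 and MAC C/EBPβ, with 4 MAC PU.1 and 5 MAC C/EBPβ peaks. A MAC PU.1 peak at -0.252 kb and a pair of MAC PU.1 and C/EBPβ peaks at -1.18 kb (chr10:95417830-95418240) lay at the start, and both regions held a STAT word. The other peaks lay at -6.05 kb and between 26.2 and 45.8 kb downstream of the start. The MAC PU.1 density of 0.545 per 10 kb was close to the median coding gene.

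Socs3, the feedback inhibitor of interleukin-6 family signalling, is a short gene on the minus strand of chr11:117966079-117970336. It was the most densely bound member, with 19 MAC PU.1, 9 MAC C/EBPβ, 4 HP PU.1 and 1 HP C/EBPβ peaks. Its 4.29 MAC PU.1 peaks per 10 kb ranked 1 of 21774 coding genes, although the next gene rounded to the same value. In windows of equal length around the start, 3 coding genes had more than its 17 MAC PU.1 peaks. Its MAC C/EBPβ density, 2.03 per 10 kb, ranked 26, and its HP PU.1 density, 0.904 per 10 kb, ranked 44. By counts in the windows of equal length, 47 coding genes lay above it for MAC C/EBPβ and 113 for HP PU.1. The MAC PU.1 peaks ran from -20.6 kb to 22.6 kb, with 3 of them within 2 kb upstream of the start, at -0.312, -1.27 and -1.85 kb. No MAC C/EBPβ peak lay within 2 kb of the curated Socs3 start.

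The 4 HP PU.1 peaks of Socs3 lay at 22.6, 9.1, -5.52 and -6.94 kb, all in intergenic sequence, and each overlapped a MAC PU.1 peak. A MAC C/EBPβ peak overlapped as well in 3 of these regions, at 22.7 kb (chr11:117946335-117947016), 9.25 kb (chr11:117959765-117960464) and -5.55 kb (chr11:117974673-117975167). The regions at 22.7 kb and 9.25 kb each held a PU.1 and a STAT word, printed above, whereas the region at -5.55 kb held neither. The HP C/EBPβ peak was at -17.9 kb in an intron of Pgs1, 408 bp from a Pgs1 start site, and both macrophage factors overlapped it (chr11:117987066-117987543). Outside the window, further peaks were nearer to the Socs3 start than to that of any other coding gene. An HP GFI1B peak lay at 29.4 kb beside an HP PU.1 peak at 29.5 kb, and an HP C/EBPβ peak lay at 33.5 kb.

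Cish, the first described inhibitor of the family, is induced by STAT5 and spans chr9:107296659-107302784 on the plus strand. Its window had peaks of 5 lists, the largest number among the members by this rule. By nearest coding start Cish had peaks of 2 lists, while Socs1 and Socs3 had peaks of 5. Its window held 10 MAC PU.1, 6 MAC C/EBPβ and 1 each of the HP PU.1, HP C/EBPβ and MES C/EBPβ peaks. The C/EBPβ peaks of 3 stages coincided at -15.9 kb (chr9:107280254-107281180). Their centres lay at -15997 bp in MES, -16004 bp in HP and -16005 bp in MAC, at the C/EBP word printed above. A pair of MAC PU.1 peaks flanked them, at -16.2 and -15.7 kb. The HB and HE C/EBPβ lists, which held 715 and 132 peaks, had no peak there. The region lay in an intron of Mapkapk3, 248 to 256 bp from a Mapkapk3 start site, so the distance rule for Cish and proximity to Mapkapk3 cannot be told apart. The HP PU.1 peak at -9.8 kb was also in Mapkapk3 and overlapped a MAC PU.1 peak. Nearer to the Cish start lay MAC peaks at -0.561 kb (C/EBPβ), -1.08 kb and 1.37 kb (PU.1). The start itself, with its 2 STAT words, was not covered by a peak.

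**Figure D4:**
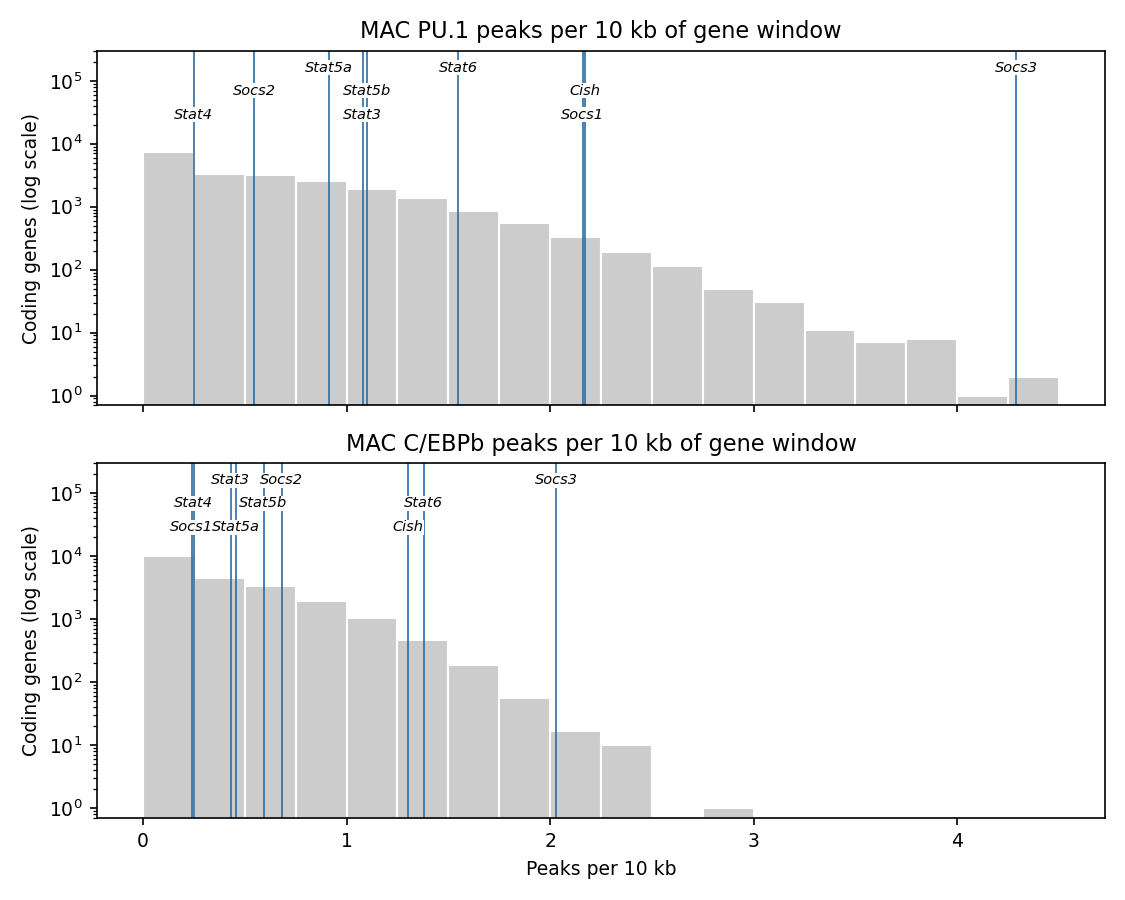
Histogram of coding genes by peaks per 10 kb of their window (grey, counts on a log axis) for MAC PU.1 (top) and MAC C/EBPβ (bottom), with the 9 members as blue lines. Socs3 lies at the upper end for MAC PU.1, 4.29 per 10 kb, and Stat4 at the lower end, 0.25 per 10 kb.

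How progenitor binding related to macrophage binding was examined next. Each of the 13 HP PU.1 peaks at the loci overlapped a MAC PU.1 peak by at least 1 bp (100%, exact 95% interval 75.3 to 100), where 97% of the whole HP PU.1 list did. The centres were a median of 11 bp apart at the loci and 13 bp in the whole list. By gene, 7 of 9 members had such a shared peak, against 37.8% of coding genes. All 4 HP C/EBPβ peaks overlapped a MAC C/EBPβ peak (exact 95% interval 39.8 to 100), with 91.4% in the whole list. Both whole-list values lay within the intervals for the loci. In the other direction, 16.7% of MAC PU.1 peaks at the loci overlapped an HP PU.1 peak (interval 9.18 to 26.8), and 12.8% of the whole list did. Of the 4 HP C/EBPβ peaks, 0 overlapped an HP PU.1 peak (interval 0 to 60.2, 14.9% in the whole list) and 3 overlapped a MAC PU.1 peak (interval 19.4 to 99.4, 52.5% in the whole list).

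In macrophages, 24 of 44 C/EBPβ peaks at the loci overlapped a PU.1 peak (54.5%, interval 38.8 to 69.6), against 42.5% of the whole list. The same rule found shared binding at 8 of 9 members, against 57.5% of coding genes, the exception being Stat5a. The centres of overlapping peaks lay a median of 150 bp apart at the loci and 65 bp in the whole list. Centres within 50 bp were found for 6 of 24 pairs at the loci and for 9688 of 23553 in the whole list. The whole-list share of 42.5% lay inside the interval for the loci. An overlap of 200 bp or more was reached by 29.5% of the C/EBPβ peaks at the loci, so the count of shared sites rests on how much overlap is required. The whole-list share at 200 bp was not taken, so the loci and the list were compared for any overlap only. All intervals cover counting error only.

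The 141 peaks fell into 97 merged regions, of which 65 were bound in 1 list, 23 in 2, 8 in 3 and 1 in 4, the last being the Cish region at -15.9 kb. By position, 65 peak centres were intergenic, 61 in introns, 10 in noncoding genes or pseudogenes, 3 in coding exons and 2 in untranslated exons. A coding start site lay within 2 kb of 32.6% of the peaks (interval 25 to 41), against 21% of all peaks in the series. The windows were built around coding genes, and among the 126451 peaks in the window of any coding gene the share was 26.3%, inside that interval. The nearest coding start belonged to a member for 105 peaks and to another gene for 36 peaks.

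Since these genes act in the STAT pathway, the peaks were searched for the STAT palindrome TTCNNNGAA, which reads the same on both strands in its fixed letters. It occurred in 35 of 141 peaks (24.8%, interval 17.9 to 32.8), against 12.7% of all peaks and 12.4% of peaks in the window of any coding gene. The share was 26.9% in MAC PU.1 peaks at the loci and 12.6% in the whole list, and 27.3% and 13.2% for MAC C/EBPβ. In HP PU.1 it was 2 of 13 peaks, 15.4% with an interval of 1.92 to 45.4, beside 12.4%. Overlapping peaks share their sequence and are not independent, so merged regions were also counted. A STAT word was found in 27 of 97 (27.8%, interval 19.2 to 37.9), against 13.5% of all merged regions. The median region width was 400 bp in both sets, which is the width of a single peak. Wider joined regions, which offer more sequence to a match, were not accounted for. Within the central 200 bp of the peaks it was 15.6% at the loci and 6.46% in the series. The words were unevenly spread: 9 of 21 regions at Socs3, 6 of 12 at Cish, 3 of 7 at Socs2 and 2 of 9 at Socs1 held one. Among the STAT genes it was 3 of 6 at Stat4, 3 of 11 at Stat3, 1 of 13 at Stat6, 0 of 16 at Stat5b and 0 of 2 at Stat5a. No list measured a STAT protein, and a match describes the letters only.

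**Figure D5:**
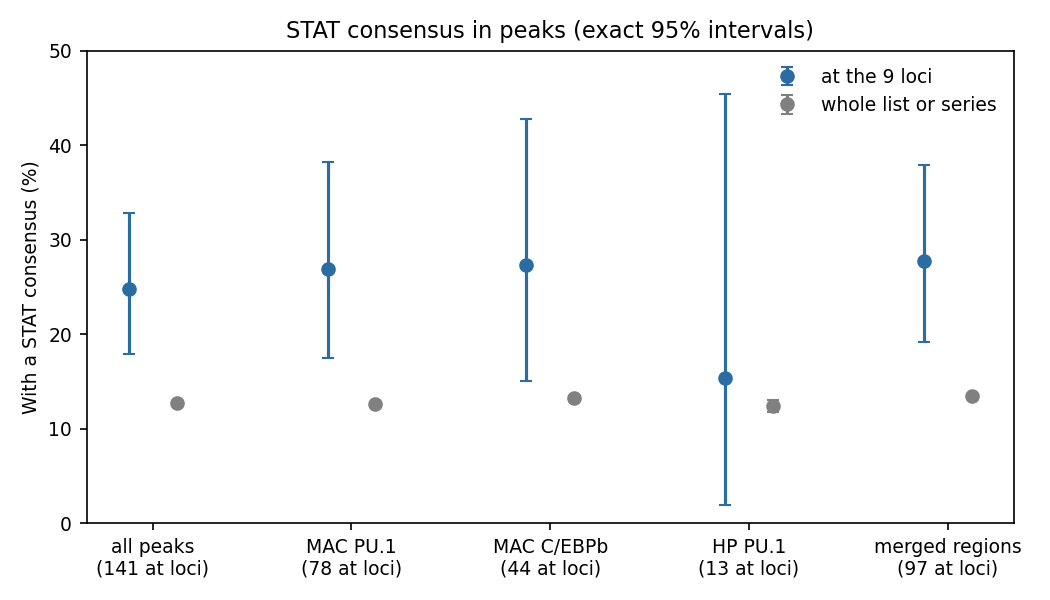
Percent of peaks, or of merged regions, holding the STAT consensus at the 9 loci (blue) and in the whole list or series (grey), with exact 95% binomial intervals for counting error. All peaks lie at 24.8% at the loci and 12.7% in the series, and the interval for 13 HP PU.1 peaks spans the value of its whole list.

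The words of the factors themselves were searched in the same way. The consensus of the factor precipitated occurred in 21.3% of the peaks at the loci (interval 14.8 to 29) and in 23.1% of all peaks, a value inside that interval. For HP PU.1 it was 5 of 13 peaks (38.5%, interval 13.9 to 68.4) beside 42.1% of the list. The AP-1 word, TGACTCA or TGAGTCA, was in 12.8% of peaks at the loci and 13.4% of all. The RUNX word was in 18.4% (interval 12.4 to 25.8) and 10.9%. AGATAAG or AGATAAC, the GATA words, were in 13.5% (interval 8.31 to 20.2, which includes the series value) and 8.65%, although the RUNX1 and GATA lists had 1 and 0 peaks here. Overlapping peaks share these words too, and no share by merged region was taken for them. The intervals are therefore too narrow, and the RUNX shares cannot be read as a difference between the loci and the series.

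Promoters of the members, from 250 bp before to 50 bp after a RefSeq start, were matched to the table of 32851 mouse promoters, in which 8.3% held a STAT word. Among the promoters found for the members, a STAT word was present in those of Socs3 and Cish. The Socs3 promoter (chr11:117969317-117969616, minus strand) carried the word within a MAC PU.1 peak, and the Cish promoter (chr9:107296409-107296708, plus strand) held 2 words and no peak. The promoter sequences of Socs1 and Stat3 held none of the words searched, and each overlapped a MAC PU.1 peak. The Stat6 promoter overlapped a MAC C/EBPβ peak and held a RUNX word, found in 5.27% of promoters. GFI1B words (AATCNNNGC, in 10.3% of promoters) were present in promoters of Stat5a and Stat5b that carried macrophage peaks, where the GFI1B list had none.

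The remainder of the pathway was counted for 50 genes: 4 kinases, 13 further inhibitors, 19 cytokine receptors and 14 STAT targets. MAC PU.1 peaks were found at all 50, MAC C/EBPβ peaks at 48, HP PU.1 peaks at 37 and HP C/EBPβ peaks at 18, beside 79.1%, 73.8%, 38.2% and 14.8% of coding genes. HP GFI1B, absent from the 9 windows, had peaks at 13 of the 50 genes (11.8% of coding genes), and MES ELK4 at 8 (4.66%). Among kinases, 4 of 4 had a MAC PU.1 peak and 2 of 4 an HP PU.1 peak, numbers too small to be read against those shares. Of the 13 inhibitors, 13 had peaks of both macrophage factors and 10 had an HP PU.1 peak. Of the receptors, 18 of 19 had a MAC C/EBPβ peak and 13 an HP PU.1 peak, and of the targets 14 of 14 and 12. The median gene was bound in 4 lists among the 9 members, 3.5 among the 50 pathway genes and 2 among coding genes.

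Of the 50 genes, 9 were bound in 6 or more lists, against 4.52% of coding genes and 0 of the 9 members, and 5 of these 9 came from the list of STAT targets. Junb and Fos, subunits of AP-1, were bound in 9 and 8 lists, and Bcl2l1, an inhibitor of apoptosis, in 8. Mcl1, another survival gene, and Myc were bound in 6 lists each. Ptpn1, a phosphatase of the pathway, and the receptor genes Il6ra, Il10ra and Il3ra were also bound in 6. In the HB C/EBPβ list, which had no peak at the 9 loci, 4 of the 50 genes were bound, Il6ra, Il3ra and Myc among them. The share of coding genes with a peak of that list was 4.24%. No gene of the 50 was free of peaks, whereas 3959 of 21774 coding genes were. Window lengths of the 50 genes were not compared with those of other genes.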

How the data were processed

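Binding sites of 7 TFs were measured by ChIP-seq in 5 cell populations, 1 list per factor and stage. The authors trimmed reads with CutAdapt, aligned them to mm10 (GRCm38) with Bowtie, called peaks with MACS at p-value cutoffs set by inspection, refined them with polyPeak and standardised their width, and some lists pooled technical sequencing runs. The deposited values are start and end coordinates of each peak in bp, with no score, signal or read count, and versions of these tools are not given in the sources used here.

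Peaks overlapping a gene span extended by 20 kb were counted with the RefSeq GRCm38.p6 annotation, distances were taken from peak centres to curated start sites, overlap meant at least 1 bp, and overlapping peaks were joined into regions across lists. For every list the share of coding genes with a peak was counted over all 21774 genes. Consensus words were searched on both strands in the full 400 bp. Intervals are exact Clopper-Pearson 95% intervals. With 1 list per group no test was made. The members, gene lists, words and comparisons were chosen with earlier results of these data known. The text names the 9 members, the regions bound in the most lists (at most 2 per gene) and those at the start of each member, and pathway genes bound in 6 or more lists or in none, while other regions named were chosen after their values were seen. Alternatives were other flanks, nearest-start assignment, other backgrounds, a larger overlap and a narrower search. Calculations used Python 3.11.15, NumPy 2.4.6, pandas 2.3.3 and SciPy 1.17.1, and drawings Matplotlib 3.10.9. The programs were tested on simulated data. Sequences are from RefSeq (GRCm38.p6). No entry of the promoter table was matched for Socs2.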

Additional observations from a re-analysis of the deposited data

How the results depend on the processing

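Counts were taken as moved when they changed by more than 1.5 times, and shares when they left the 95% interval of the reported value, which is narrow for shares over all coding genes. By these limits 11 of 29 alternative values moved. The loci held 101 peaks with flanks of 10 kb and 94 in windows around the annotated start. With flanks of 50 kb the loci held 246 peaks in place of 141. The number of combinations of locus and list with a peak ranged from 26 (10 kb flanks) to 38 (50 kb flanks) around 32. When windows were drawn 20 kb on each side of the annotated start, the shares of coding genes with a peak fell to 10.3% for HP C/EBPβ, 27.4% for HP PU.1, 66% for MAC C/EBPβ and 73.8% for MAC PU.1. In these windows 5, 7, 8 and 8 of 9 members had a peak. Over all RefSeq genes these shares were 10.7%, 28.1%, 61.4% and 67.4%. MAC C/EBPβ peaks overlapping MAC PU.1 by 200 bp or more made up 29.5% of those at the loci, against 54.5% for any overlap. With 200 bp searched, 15.6% of peaks held a STAT word, against 24.8%. When each peak was given to the nearest coding start, the MES C/EBPβ and HP RUNX1 peaks left the members, those with an HP C/EBPβ peak went from 5 to 3 and with an HP PU.1 peak from 7 to 6, and HP GFI1B (Socs1 and Socs3, 8.12% of coding genes by this rule) and HP GATA2 (Socs1, 2.23%) peaks beyond 20 kb joined them. No paired analysis was possible because every group held 1 list. The depth, not used here, and the separate thresholds of the lists limit every comparison between stages.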

Other observations

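A region in an intron of Clec16a, 47.7 kb downstream of the Socs1 start and outside the window used for that gene, held HP GATA2 and HP GFI1B peaks. An HP PU.1 peak lay further away at 61.6 kb, in the same gene and with a MAC PU.1 peak overlapping it. By nearest coding start these peaks belong to Socs1, whose window otherwise held 1 HP peak. The HP GFI1B peak near Socs3, at 29.4 kb, fell in a region also bound by HP PU.1 and MAC PU.1.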
